A study of Mus musculus with 3 samples.

Results

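The genes described here are those of vesicle traffic that carry classical family names: the Rab and Arf small GTPases, the Sec, Cop and Vps genes, the sorting nexins (Snx), the syntaxins (Stx) and the vesicle-associated membrane proteins (Vamp). They were chosen by name alone, as every gene whose name in the array annotation begins with 1 of these prefixes followed by a digit, or for Cop also by a letter, together with names such as Sec61a. The rule found 91 names on 118 probes, out of 18181 genes or unnamed features on the array. Of these names 13 met the rule by their letters but are not vesicle traffic genes, among them the 7 measured subunits of the COP9 signalosome (Cops), so 78 names are vesicle traffic genes.

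The RNA came from 3 primary cultures of ovarian surface epithelium, the single cell layer that covers the ovary, taken from superovulated and mated C57/Bl6 females. From every culture a mesenchymal population, held in 15% fetal bovine serum (FBS) for 1 week, was compared with the epithelial population grown in 2.5% FBS, and cells were collected at 80% confluence. The growth medium was otherwise shared, and no genetic change or further agent is given. Serum and phenotype changed together and cannot be told apart, and, as in any bulk sample, fewer cells of a type and less RNA per cell cannot be told apart either. Both RNAs of a culture were labelled with Cy3 and Cy5 and hybridised together to 2 arrays of opposite dye orientation, which gave 6 arrays and n = 3 cultures. The deposited labels call the cultures biological replicates.

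Cargo moves between organelles in vesicles and tubules. Sar1 and Arf GTPases recruit coats. These are COPII for export from the endoplasmic reticulum (ER), COPI for return within the early secretory pathway, and clathrin at the Golgi and endosomes. Rab GTPases then give each membrane its identity and call in tethers, and SNARE proteins such as syntaxins and Vamps fuse the membranes, while retromer and sorting nexins retrieve receptors from endosomes and so decide which of them escape lysosomal degradation. In epithelial cells this machinery also keeps the apical and basolateral membranes apart and cycles cadherins and integrins.

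Values are given on 2 scales. Log2 brightness is the normalised fluorescence of a probe in 1 RNA, and the log2 ratio is mesenchymal over epithelial brightness, averaged over the 2 arrays of a culture. Brightness depends on the probe, so it was compared between the 2 RNAs of a gene and not between genes. A gene with several probes was counted by its brightest probe, and a gene was called when limma's moderated test of the 3 culture ratios against 0 gave a Benjamini-Hochberg adjusted p under 0.05 over all 20185 probes tested. Precision is limited by the 3 cultures.

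Among the 90 genes that could be tested, 13 rose in mesenchymal cells, 1 fell and 76 did not pass the threshold. Over all 18013 genes or features tested, 11.4% were called, 5.68% higher and 5.67% lower. The members' median log2 ratio was 0.04, against -0.0031 over all features, and 51 of 90 members lay above 0. Without the 13 names that are not traffic genes, 10 of 77 rose and 1 fell. Only Vps28, a subunit of the ESCRT-I complex of endosomal sorting, was not tested, because culture 1 alone measured it on both arrays. No member was removed for low signal, so the counts hold every other member, 83 of them over 3 cultures and 7 over 2.

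**Figure D1:**
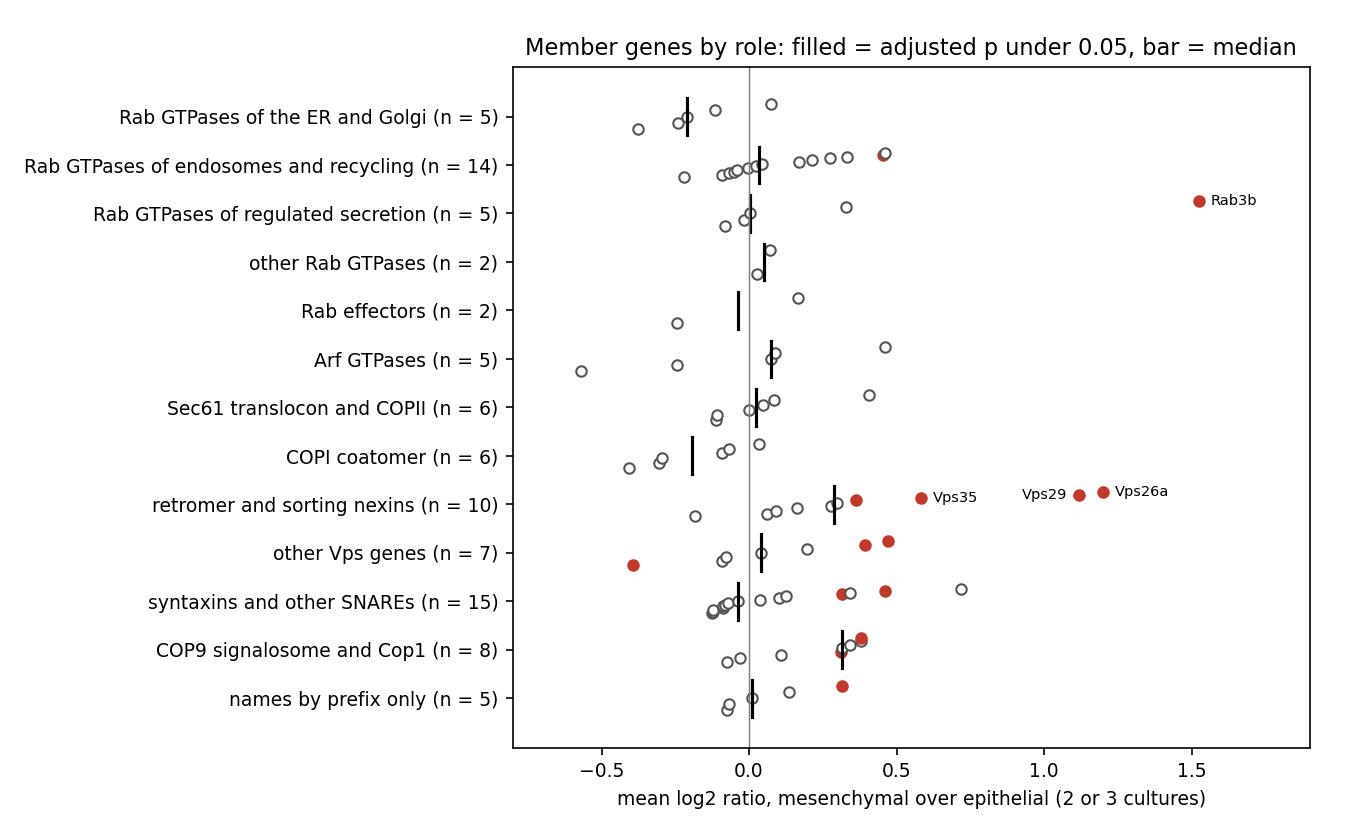
Mean log2 ratio (mesenchymal over epithelial, x axis) of the 90 tested genes, in rows by role. Filled points passed an adjusted p of 0.05 and black bars mark the median of each row. Rab3b, Vps26a and Vps29 lie furthest to the right, while the COPI row has its median at -0.19 and the row of ER and Golgi Rabs at -0.21.

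By role, retromer and sorting nexins held 4 of the 13 genes that rose, among 10 tested, and their median log2 ratio was 0.29. The other Vps genes held 3 calls among 7, the Rab GTPases 2 among 26, and the group of syntaxins, other SNAREs and Sec22a 2 among 15. There were no calls among the 5 Arf GTPases, the 6 COPI subunits found by prefix, the 6 genes of the Sec61 translocon and COPII, or the 4 Vamps. Over all features 11.4% were called, and at that share a group of 4 to 6 genes may well hold no call. These counts come from the same test and were not themselves compared between roles.

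Retromer is the endosomal coat that returns receptors to the Golgi and the plasma membrane, and its cargo-binding core is a trimer of Vps26, Vps29 and Vps35. All 3 core genes rose, although Vps29 and Vps35 could not be tested once saturated spots were left out, since fewer than 2 cultures then measured them. Vps26a, listed on the array as Vps26, had a log2 brightness of 13.55, 13.68 and 13.57 in mesenchymal RNA of cultures 1, 2 and 3, against 12.40, 12.51 and 12.28 in epithelial RNA. Every mesenchymal value lay above every epithelial one. The log2 ratio was 1.20 ± 0.07 (SD, n = 3), a 2.30-fold increase with a limma adjusted p of 0.000498, and it was above 0 on 6 of 6 arrays. A dimmer Vps26a probe rose as well, by 0.79 ± 0.26 on the log2 scale (adjusted p = 0.0079), with culture ratios of 0.50, 0.91 and 0.96.

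Vps29, the small subunit with a phosphoesterase-like fold, had a log2 brightness of 14.70, 14.82 and 14.21 in mesenchymal RNA, against 13.62, 13.58 and 13.17 in epithelial RNA. The ranges did not overlap. Its log2 ratio was 1.12 ± 0.10, or 2.17-fold, with an adjusted p of 0.000758 by limma. The dye weighed heavily on this probe: the 3 arrays with mesenchymal RNA in Cy5 gave ratios of -0.38, -0.42 and -0.36, and the 3 arrays with it in Cy3 gave 2.55, 2.89 and 2.43. The average over both orientations is the reported ratio, and on 2 arrays the mesenchymal spot was saturated. Because the direction on a single array followed the dye, the Vps29 value rests on the exchange of dyes alone.

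Vps35, the scaffold to which the other subunits bind, had the brightest probe of the core. It had a log2 brightness of 15.75, 15.57 and 15.67 in mesenchymal RNA, against 14.97, 14.92 and 15.34 in epithelial RNA, without overlap. The log2 ratio was 0.58 ± 0.23 (1.5-fold, adjusted p = 0.0186 by limma), above 0 on 6 of 6 arrays, and its mesenchymal spot was saturated on 2 arrays. Leaving out culture 2 ended the Vps35 call, at 0.55 with an adjusted p of 0.0706, while the Vps26a and Vps29 calls held without any 1 culture.

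**Figure D2:**
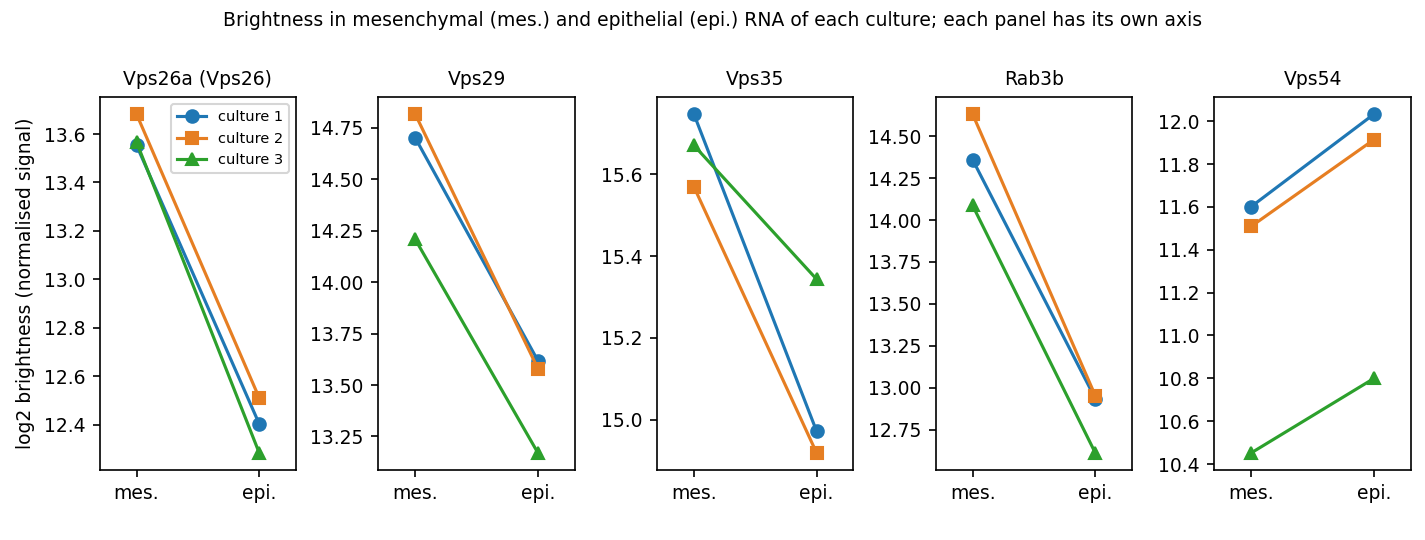
Log2 brightness (y axis, a separate scale in each panel) of 5 genes in mesenchymal (left) and epithelial (right) RNA, with 1 line per culture. Every line of Vps26a, Vps29, Vps35 and Rab3b is higher on the mesenchymal side, and every line of Vps54 is lower, although the Vps54 ranges overlap between cultures.

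Promoters of the 3 genes that rose at least 2-fold are shown because 2 of them are retromer core genes that moved together. Sequences are RefSeq windows of build GRCm38.p6 that run from 250 bases before to 50 after the annotated start, 5′ to 3′ on the gene's strand. Capitals mark matches, on either strand, to 5 searched motifs. These were the E-box CACGTG, the AP-1 site TGACTCA, the cAMP response element TGACGTCA, the GC box GGGCGG and the CCAAT box. A GC box on the other strand reads as its reverse complement. In Rab3b a pair of GC boxes overlap. Vps26a lies on the minus strand of chromosome 10 (window chr10:62486756-62487055), Vps29 on the plus strand of chromosome 5 (chr5:122354078-122354377) and Rab3b on the plus strand of chromosome 4 (chr4:108878820-108879119).
Vps26a: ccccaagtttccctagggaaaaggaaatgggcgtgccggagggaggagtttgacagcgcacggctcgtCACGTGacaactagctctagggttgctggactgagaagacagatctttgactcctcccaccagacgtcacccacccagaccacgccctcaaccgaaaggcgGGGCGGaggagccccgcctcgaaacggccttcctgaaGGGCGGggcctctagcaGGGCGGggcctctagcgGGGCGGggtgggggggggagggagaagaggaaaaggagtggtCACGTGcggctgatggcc
Vps29: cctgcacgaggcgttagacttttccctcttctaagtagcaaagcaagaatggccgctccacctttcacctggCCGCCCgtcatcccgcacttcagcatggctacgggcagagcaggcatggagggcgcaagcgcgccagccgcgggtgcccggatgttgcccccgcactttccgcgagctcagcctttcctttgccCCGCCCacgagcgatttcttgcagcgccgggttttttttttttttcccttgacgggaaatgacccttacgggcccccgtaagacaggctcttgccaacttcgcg
Rab3b: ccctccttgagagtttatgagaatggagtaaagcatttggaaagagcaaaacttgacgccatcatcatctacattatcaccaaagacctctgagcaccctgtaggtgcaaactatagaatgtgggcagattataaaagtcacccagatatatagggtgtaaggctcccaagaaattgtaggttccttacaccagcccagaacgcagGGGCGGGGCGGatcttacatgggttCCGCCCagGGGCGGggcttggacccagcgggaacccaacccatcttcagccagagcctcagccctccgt
The Vps26a window held 2 E-boxes and 4 GC boxes, with a GC content of 64.7%. The Vps29 window held 2 GC boxes at 60.7% GC, and the Rab3b window 4 GC boxes at 51.7% GC, against a median of 52.7% over 27025 mouse promoters of the same length. No E-box was in the Vps29 or Rab3b windows. A promoter was listed for 71 of the member genes. Of these 73.2% held a GC box, against 35.9% of all promoters, 11.3% an E-box, against 7.24%, and 38% a CCAAT box, against 37.9%. No member window held the AP-1 site, which 5.17% of all promoters held, and 1 member window held the cAMP response element, against 1.88% of all promoters. Of the 8 genes that rose and had a listed promoter, 7 held a GC box. Member windows and all promoters were not matched for GC content, and the part of base composition in these shares was not tested. A match describes the letters of a window and is not evidence of binding, and promoters of Vps35, Vps11 and Snx2 are not shown.

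The 7 sorting nexins, which bind phosphoinositides on endosomes, included 1 that rose. Snx2, a membrane-bending partner of retromer, had a log2 brightness of 12.25, 12.47 and 12.55 in mesenchymal RNA, against 11.99, 11.98 and 12.22 in epithelial RNA, again without overlap. Its log2 ratio was 0.36 ± 0.12 (1.29-fold, adjusted p = 0.0354 by limma). The other 2 Snx2 probes gave 0.54 ± 0.37 and 0.20 ± 0.03 and did not pass (adjusted p = 0.0643 and 0.138).

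Snx3, which helps recruit retromer to endosomes, had nearly equal ratios of 0.28, 0.26 and 0.29 in the 3 cultures, with a mean of 0.28 ± 0.01 and an adjusted p of 0.0522. Its mesenchymal log2 brightness of 15.65, 15.62 and 15.43 lay above the epithelial values of 15.37, 15.35 and 15.14, but the gene missed the threshold. Snx9, which works with dynamin in clathrin-mediated endocytosis, missed it by its brightest probe (0.30 ± 0.12, adjusted p = 0.0667) and passed it by a dimmer one (0.36 ± 0.08, adjusted p = 0.0286). Snx1, a close relative of Snx2, had a ratio of -0.18 ± 0.17 and was the only sorting nexin below 0. Snx5 spread widely, with culture ratios of 0.73, -0.28 and 0.04, and Snx4 and Snx17 had means of 0.06 and 0.09.

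Among the remaining Vps genes, Vps11 and Vps45 rose and Vps54 fell. Vps11, a core subunit of the HOPS and CORVET tethers that bring endosomes and lysosomes together, had a log2 brightness of 12.71, 12.85 and 12.41 in mesenchymal RNA, against 12.36, 12.22 and 11.99 in epithelial RNA. The ranges did not overlap, and the ratio was 0.47 ± 0.14 (1.39-fold, limma adjusted p = 0.0186). The HOPS and CORVET core gene Vps16 and the HOPS gene Vps41 did not pass, at 0.20 ± 0.12 and 0.04 ± 0.04.

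Vps45, the Sec1/Munc18-type protein that assembles SNAREs on early endosomes, had a log2 brightness of 10.93, 10.65 and 10.52 in mesenchymal RNA, against 10.67, 10.09 and 10.16 in epithelial RNA. The ranges overlapped between cultures, but the mesenchymal value was higher within each culture and on 6 of 6 arrays. The ratio was 0.39 ± 0.15 (1.31-fold, adjusted p = 0.0348 by limma).

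Vps54 was the only called member that fell. It encodes a subunit of GARP, the complex that tethers endosome-derived vesicles to the trans-Golgi network. Its log2 brightness was 11.60, 11.51 and 10.45 in mesenchymal RNA, against 12.03, 11.91 and 10.80 in epithelial RNA. Culture 3 was dim in both RNAs, so the ranges overlapped, but within the cultures the ratios were close, at -0.43, -0.40 and -0.35. Vps54 fell by 0.39 on the log2 scale (SD 0.04, 1.31-fold lower, limma adjusted p = 0.0184). Its other 2 probes gave -0.29 ± 0.21 and -0.08 ± 0.07 and did not pass. Vps4a and Vps4b, the ATPases that disassemble ESCRT-III, had ratios of -0.09 ± 0.03 (n = 3) and -0.08 ± 0.25 (n = 2).

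**Figure D3:**
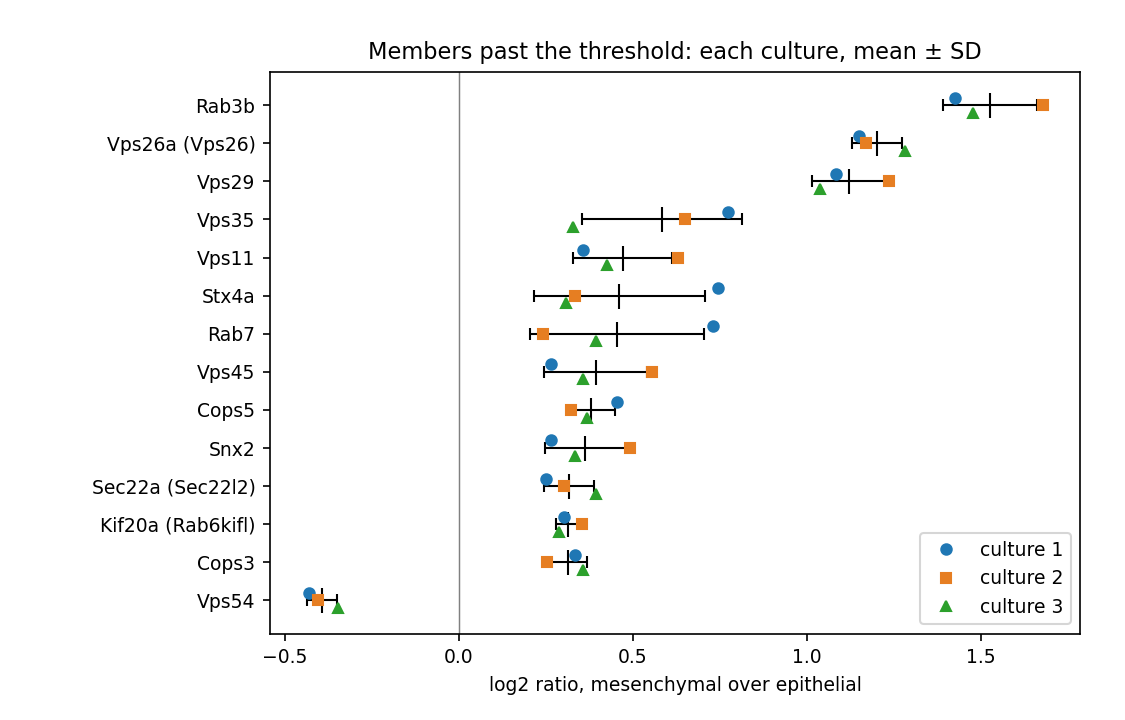
Log2 ratio (mesenchymal over epithelial, x axis) in each of the 3 cultures for the 14 called genes, with the mean and SD over cultures as a bar. Every culture lies on the same side of 0 for every gene shown. Rab3b, Vps26a and Vps29 exceed 1 in every culture.

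Rab3b showed the largest change of any member by the brightest probe. Rab3b belongs to the Rab3 family, which acts in regulated exocytosis of secretory vesicles and is best known from neurons and endocrine cells. It had a log2 brightness of 14.36, 14.63 and 14.09 in mesenchymal RNA, against 12.94, 12.95 and 12.61 in epithelial RNA. Every mesenchymal value stood more than 1 log2 unit above every epithelial one. The log2 ratio was 1.53 ± 0.13, a 2.88-fold increase (limma adjusted p = 0.00037), above 0 on 6 of 6 arrays. Its family members Rab3a (-0.08 ± 0.01) and Rab3d (-0.02 ± 0.11) did not pass. Rab27a and Rab38, which serve secretory lysosomes and pigment granules, had ratios of 0.33 ± 0.20 and 0.0048.

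Rab7, which drives late endosomes towards lysosomes and binds retromer, was the other Rab GTPase that rose. It had a log2 brightness of 15.53, 15.05 and 14.96 in mesenchymal RNA, against 14.80, 14.81 and 14.57 in epithelial RNA. The ranges did not overlap, culture 1 differed most, and the ratio was 0.45 ± 0.25 (1.37-fold). The adjusted p of 0.048 by limma lay close to the threshold, and the call was lost without culture 3, at 0.48 with an adjusted p of 0.197.

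Of the 14 Rabs of endosomes and recycling, Rab7 alone passed, and their median log2 ratio was 0.03. The probe named Rab5a, after the regulator of early endosome fusion, was near 0, with ratios of -0.19, -0.08 and 0.12 and a mean of -0.05 ± 0.16. The gene identifier given with it in the array files is that of another gene, Pp2d1, so its identity is uncertain. Rab24, linked to autophagy, had ratios of 0.72, 0.48 and 0.18 and narrowly missed the threshold (0.46 ± 0.27, adjusted p = 0.0539). Rab11a, the GTPase of recycling endosomes, lay at -0.22 ± 0.06 (adjusted p = 0.118), and its mesenchymal and epithelial ranges did not overlap. Rab9, which returns cargo from late endosomes to the Golgi, and Rab21, which traffics integrins, disagreed between cultures. Culture 1 gave -0.37 for Rab9 and -0.68 for Rab21, while cultures 2 and 3 gave 0.56 and 0.45 for Rab9, and 0.93 and 0.57 for Rab21.

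The 5 Rabs of the ER and Golgi had a median log2 ratio of -0.21 and no call by the brightest probe. Rab6a, listed as Rab6, acts in retrograde transport at the Golgi. Its brightest probe had a log2 brightness of 14.81, 14.52 and 14.56 in mesenchymal RNA, against 14.94, 15.16 and 14.92 in epithelial RNA, a ratio of -0.38 ± 0.25 that did not pass (adjusted p = 0.0878) although it was below 0 on all 6 arrays. A slightly dimmer Rab6a probe gave the same mean of -0.38 with an SD of 0.13 and passed (adjusted p = 0.0331). Rab1a and Rab2a, which act between the ER and Golgi, had ratios of 0.07 ± 0.10 and -0.12 ± 0.19. Rab33b lay at -0.24 ± 0.10, and Rab18, measured in 2 cultures, at -0.21 ± 0.68. The Rab effectors Rabep1 and Dennd5a, listed as Rab5ep-pending and Rab6ip1, gave 0.16 ± 0.18 and -0.24 ± 0.17.

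No Arf GTPase was called, and the means of the 5 genes lay on both sides of 0. Arf4, which acts at the Golgi, had a log2 brightness of 15.33, 14.79 and 14.81 in mesenchymal RNA, against 15.43, 15.66 and 15.55 in epithelial RNA. The ranges did not overlap, yet culture 1 differed little, with ratios of -0.10, -0.87 and -0.74, and the mean of -0.57 ± 0.41 missed the threshold (adjusted p = 0.0715). Arf1, which recruits COPI, had ratios of -0.28, -0.13 and -0.32 and a mean of -0.24 ± 0.10 (adjusted p = 0.104). Arf6, which acts at the plasma membrane and in endosomal recycling, lay above 0 in each culture, with ratios of 0.14, 0.60 and 0.64 and a mean of 0.46 ± 0.27 (adjusted p = 0.0556). Arf2 and Arf3 had means of 0.09 and 0.07.

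The 6 subunits of the COPI coatomer found by the Cop prefix had no call. Of these 6, 5 had means below 0, and the median was -0.19. Copa, the alpha subunit, had a log2 brightness of 15.01, 14.85 and 14.06 in mesenchymal RNA, against 15.22, 15.16 and 14.46 in epithelial RNA. The mesenchymal value was lower within each culture, although the ranges overlapped, and the ratio of -0.31 ± 0.10 missed the threshold (adjusted p = 0.0547). Copb2 had ratios of -0.76, -0.14 and -0.32, with a mean of -0.41 ± 0.32. Cope, with ratios of -0.17, -0.24 and -0.47, had a mean of -0.29 ± 0.16. Copz1, Copb1 and Copg2 had means of -0.09, -0.07 and 0.03.

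Arf4 and Copa crossed the threshold under other processing. Both genes passed with median centring in place of loess (-0.62 and -0.32), with the scanner software's own log ratios (-0.59 and -0.33) and with the authors' deposited log ratios (-0.59 and -0.33), as values lower in mesenchymal RNA. Neither passed without background correction (limma adjusted p = 0.0894 and 0.0512) or with a trended, robust variance (0.0688 and 0.0718). The epithelial Arf4 spot was saturated on 1 array. With saturated spots left out, Arf4 lay at -0.42 (limma adjusted p = 0.225).

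The Sec61 channel, through which nascent proteins enter the ER, and the COPII coat, which carries them out, had no call among 6 genes. Sec61a1, listed as Sec61a, had a log2 brightness of 15.81, 15.61 and 15.03 in mesenchymal RNA, against 15.75, 15.47 and 15.08 in epithelial RNA. The ranges overlapped and the mean ratio was 0.05 ± 0.09 (adjusted p = 0.803), but spots were saturated on 3 arrays in each RNA, which limits the ratio. A dimmer Sec61a1 probe without saturation gave -0.21 ± 0.23 (adjusted p = 0.307). Sec61g, the small gamma subunit, lay at 0.09 ± 0.13 and was saturated on 4 arrays in mesenchymal and 3 in epithelial RNA. Sec61a2, the second form of the channel, had a ratio of 0.41 ± 0.08 over 2 cultures (adjusted p = 0.0592). The COPII genes Sec23a and Sec23b gave -0.0001 and -0.11 on average, and Sec23a spread between -0.51 in culture 1 and 0.42 in culture 3. Sec63, an ER partner of the channel, was at -0.11 ± 0.10.

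Of the 15 genes grouped as syntaxins and other SNAREs 2 rose. Stx4a, the syntaxin of the plasma membrane that receives exocytic vesicles, had a log2 brightness of 14.93, 14.90 and 14.92 in mesenchymal RNA, against 14.19, 14.57 and 14.61 in epithelial RNA. The mesenchymal values were almost equal and all above the epithelial ones, and the ratio was 0.46 ± 0.24 (1.38-fold, limma adjusted p = 0.0444), above 0 on 6 of 6 arrays. Sec22a, listed as Sec22l2, is a relative of the ER to Golgi SNARE Sec22b and was placed in this group by its name. It had a log2 brightness of 12.27, 12.14 and 12.14 in mesenchymal RNA, against 12.02, 11.84 and 11.75 in epithelial RNA. Those ranges did not overlap either, and the ratio was 0.32 ± 0.07 (1.24-fold, limma adjusted p = 0.0428).

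Stx3, the syntaxin of apical plasma membranes in polarised epithelia, depended on the probe. Its dimmer probe had a log2 brightness of 10.39, 10.16 and 9.82 in mesenchymal RNA, against 9.88, 9.21 and 9.08 in epithelial RNA, and rose by 0.74 ± 0.22 (adjusted p = 0.00741) with all 6 arrays above 0. The brightest probe, measured in 2 cultures, gave 0.20 and 1.23, with a mean of 0.72 and an adjusted p of 0.161. Stx12, of recycling endosomes, had ratios of -0.06, 0.47 and 0.61 (0.34 ± 0.36, adjusted p = 0.201). The neuronal syntaxin Stx1a lay at -0.09 ± 0.15, and the late endosomal Stx7 and Stx8 at -0.12 ± 0.20 and 0.10 ± 0.13. Stx5a of the Golgi, Stx18 of the ER and Stx2 of the plasma membrane were between -0.08 and -0.04.

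The 4 Vamps, vesicle-side partners of syntaxins, were not called by their brightest probes. Vamp2, a partner of plasma membrane syntaxins in exocytosis, had a log2 brightness of 9.72, 9.62 and 9.56 in mesenchymal RNA, against 10.03, 9.53 and 9.59 in epithelial RNA, with a ratio of -0.09 ± 0.21. Vamp3, the Vamp of recycling endosomes, gave 0.13 ± 0.27 by its brightest probe, with culture 1 at 0.43 and the other cultures near 0. A dimmer Vamp3 probe gave 0.31, 0.32 and 0.25 and passed (0.29 ± 0.04, adjusted p = 0.0478). Vamp8, of late endosomes, had -0.12 ± 0.01 over 2 cultures, and Vamp1 had 0.04 ± 0.07.

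Of the 13 names that only share a prefix with the traffic genes, 3 rose. Cops5, the subunit of the COP9 signalosome that removes Nedd8 from cullins, had a log2 brightness of 14.06, 14.20 and 14.04 in mesenchymal RNA, against 13.61, 13.88 and 13.67 in epithelial RNA. The ranges did not overlap (0.38 ± 0.07, 1.3-fold, limma adjusted p = 0.0226). Cops3, another subunit, had 13.74, 13.82 and 13.39 in mesenchymal RNA, against 13.41, 13.57 and 13.03 in epithelial RNA, with overlap between cultures (0.31 ± 0.05, limma adjusted p = 0.0403). The 7 signalosome subunits had a median of 0.32, and 6 of them lay above 0. Cops4 and Cops6, at 0.38 ± 0.24 and 0.32 ± 0.26, did not pass.

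The mitotic kinesin Kif20a, listed under the older name Rab6kifl, was the third. By its brightest probe it had a log2 brightness of 13.57, 13.57 and 13.31 in mesenchymal RNA, against 13.27, 13.22 and 13.02 in epithelial RNA (0.31 ± 0.04, limma adjusted p = 0.0376). Its other 2 probes gave -0.04 ± 0.10 and 0.05 ± 0.10, so the call rests on 1 of 3 probes.

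Probes of the same gene did not always agree. There were 70 genes with 1 probe and 21 with several. Counting a gene when any probe passed raised the number of called members from 14 to 19, against 12.1% of all genes or features called in that way. The 5 added genes were Cops2, Rab6a, Snx9, Stx3 and Vamp3. Cops2 had dimmer probes at 0.43 ± 0.10 and 0.49 ± 0.26 that passed and a brightest probe at 0.34 ± 0.27 that did not (adjusted p = 0.127). Among the called genes with several probes, Vps26a was the only one with a second probe past the threshold, while Snx2, Vps54 and Kif20a had none. Probe sequences were not used here, so cross-hybridisation between close relatives such as the Rabs was not checked.

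**Figure D4:**
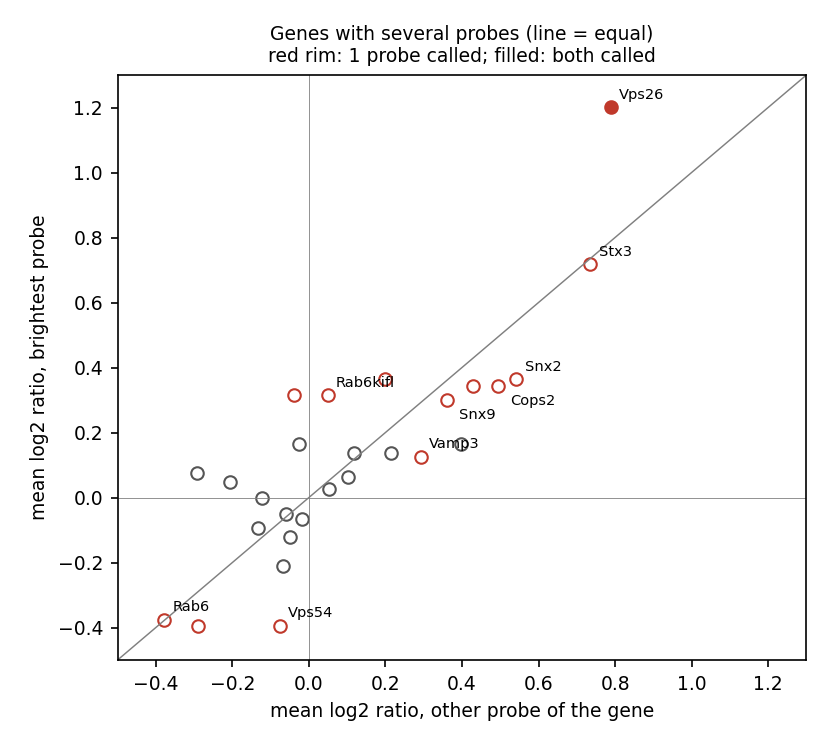
Mean log2 ratio (mesenchymal over epithelial) of the brightest probe (y axis) against each other probe (x axis) of the genes with several tested probes. Red rims mark pairs in which 1 probe was called and the filled point the pair in which both were, Vps26a. Kif20a (Rab6kifl) and the leftmost Snx2 pair lie above the line of equality, with 0.31 or more on the y axis and at most 0.20 on the x axis.

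The dye orientation moved the ratios of many members. For each gene the dye effect was taken as the average Cy5 over Cy3 log2 ratio of the 6 arrays, in which the biological difference cancels. It exceeded the mesenchymal change in 66 of 90 members and in 12640 of 18013 features. Of the 14 called members 5 kept their sign on all arrays (Rab3b, Vps26a, Vps35, Vps45 and Stx4a). At the other end, 4 were above 0 on 3 of 6 arrays (Vps29, Sec22a, Cops3 and Kif20a), always those with mesenchymal RNA in Cy3. In 11 of the 14 called genes the mesenchymal and epithelial brightness ranges did not overlap. The calls were made from the same values, so this count is no separate support for them. Ranges without overlap were found in 21 of all 90 tested members, against 13.9% of all features.

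**Figure D5:**
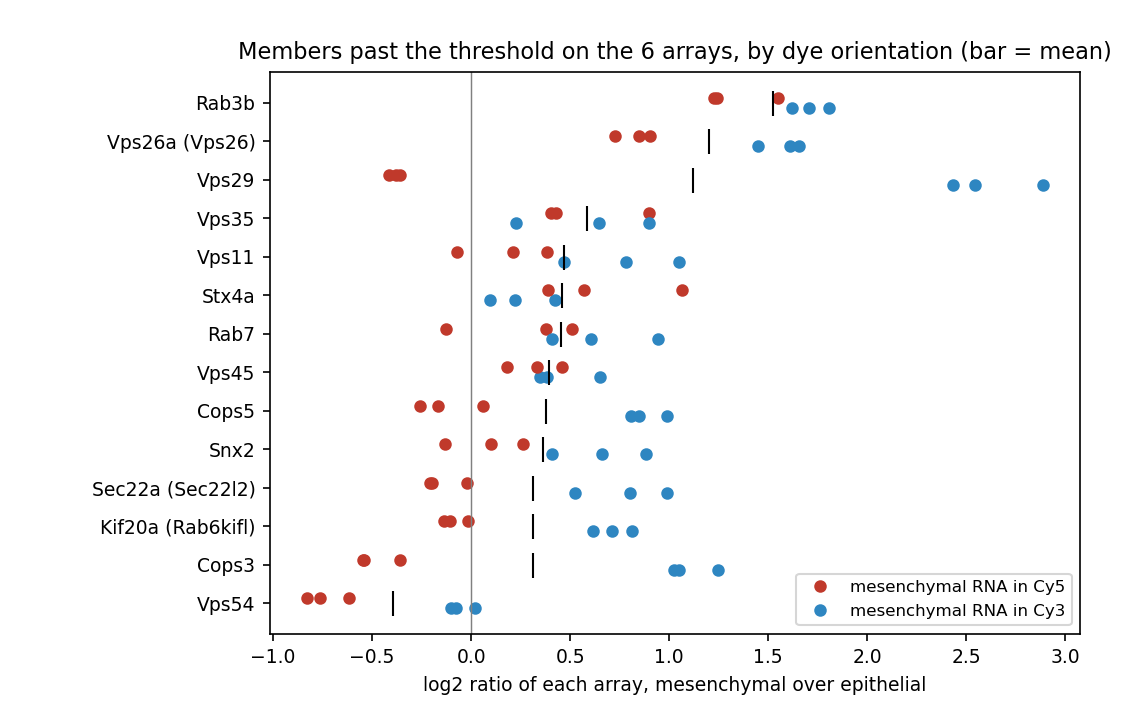
Log2 ratio (mesenchymal over epithelial, x axis) of the 14 called genes on each of the 6 arrays, red with mesenchymal RNA in Cy5 and blue with it in Cy3, and the mean as a bar. For Vps29, Sec22a, Kif20a and Cops3 the colours fall on opposite sides of 0, while all points of Rab3b, Vps26a, Vps35, Stx4a and Vps45 lie to the right.

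The calls depended on which cultures were used. Without culture 2 or culture 3, only 4 members were called (Rab3b, Vps26a and Vps29 in both cases, with Rab7 without culture 2 and Vps35 without culture 3), against 6.44% and 4.33% of all features. Without culture 1, 40 members were called, 28 higher and 12 lower, against 32.0% of all features. Over all probes that setting called 3271 higher and 2604 lower. Each fit without a culture tested only probes measured in both remaining cultures. With cultures 2 and 3 alone limma's prior degrees of freedom were infinite, which gives every probe the same estimate of the spread. Its part in the larger number of calls was not tested apart from that of culture 1. The 40 held all 14 genes called over 3 cultures, and in 10 of the 40 culture 1 had the opposite sign. By role they held 4 COPI subunits that fell, 7 genes of retromer and sorting nexins that rose and 1 that fell, 6 Rabs of endosomes that rose and 2 Rabs of the ER and Golgi that fell. In these groups culture 1 had the opposite sign for Copz1, Snx4, Rab9, Rab21 and Rab2a. Some other groups went both ways, with 1 Arf that rose and 2 that fell. Of the Sec61 and COPII genes 1 rose and 1 fell, and of the other Vps genes 2 rose and 1 fell. The calls among the COP9 signalosome and the Rabs of regulated secretion, 4 and 2 genes, were all higher.

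The wider traffic machinery was described with a list of 272 further genes, of which 177 were tested, and 19 of these rose and 11 fell, against 5.68% of all features higher and 5.67% lower. The 26 ESCRT and endosome genes held 6 that rose and 3 that fell. Lamp2, a main lysosomal membrane protein, had ratios of 1.26, 1.3 and 1.24 (1.27 ± 0.03, limma adjusted p = 0.000384). Tfrc, the transferrin receptor, had 0.88, 0.99 and 1.23 (1.03 ± 0.18, adjusted p = 0.0017), but only the 3 arrays of 1 dye orientation were above 0. Igf2r, the mannose 6-phosphate receptor that retromer retrieves, had 0.28, 0.89 and 0.59 (0.59 ± 0.30, adjusted p = 0.0315). The 3 genes that fell were the recycling regulators Ehd1 and Ehd2, at -0.58 ± 0.14 and -0.54 ± 0.10, and the sorting receptor Sort1, another cargo of retromer, at -0.54 ± 0.21. M6pr, the other mannose 6-phosphate receptor, did not pass, at 0.11 ± 0.04 (adjusted p = 0.424).

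Among 28 other SNAREs and SNARE partners 4 rose and 0 fell at the threshold. Vti1b, an endosomal SNARE, gave 0.61 ± 0.14, Snap23, the partner of Stx4a at the plasma membrane, gave 0.50 ± 0.18, and Use1, an ER SNARE, gave 0.47 ± 0.14. Vti1b and Use1 were above 0 on 6 of 6 arrays and Snap23 on 3 of 6. Of 40 clathrin, adaptor, dynamin and caveola genes 4 rose and 2 fell: the small adaptor subunits Ap1s1 and Ap2s1 rose by 0.54 ± 0.25 and 0.50 ± 0.13, and Cav1, the coat protein of caveolae, fell by 0.75 (SD 0.17, adjusted p = 0.00484), with its epithelial spot saturated on 2 arrays.

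Of 20 cargo receptors of the early secretory pathway 1 rose and 3 fell, with Kdelr3, a receptor that returns ER proteins, at -0.61 ± 0.13, Tfg, which organises ER exit sites, at -0.53 ± 0.27 and Ergic1 at -0.39 ± 0.11. The Golgi matrix proteins Golga4 and Golga3 fell by 0.51 and 0.50, while Cog8, of the Golgi tether COG, rose by 0.35. Signal recognition genes included Srp14 at 0.69 ± 0.19 and the receptor gene Srpr at -0.49 ± 0.08. Among regulators of Rabs and Arfs, Chm, the Rab escort protein, rose by 0.61 ± 0.31 and Arl3, an Arf-like GTPase of cilia, by 0.36 ± 0.12, each above 0 on 3 of 6 arrays.

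Cell identity was read from marker lists on the same arrays. Of 12 listed markers of ovarian surface epithelium and mesothelium 9 were measured, all well above background on 6 arrays, and 6 fell in mesenchymal cells: Krt7, Krt8, Krt19, Wt1, Msln and Gpm6a. Krt18 did not pass, at -0.46 ± 0.42, and neither did the cadherins Cdh1 and Cdh2, which lay above 0 at 0.23 ± 0.06 and 0.31 ± 0.27. The summed linear brightness of the 9 measured markers was 152907 to 183932 in mesenchymal RNA, against 297255 to 337836 in epithelial RNA. For smooth muscle and pericytes 4 of 5 markers were measured and Acta2 fell, with sums of 31670.5 to 34473.2 in mesenchymal RNA, against 62037.9 to 72286.6 in epithelial RNA. These sums mostly follow Acta2, with a mean log2 brightness of 15.33 against at most 11.92 for the others. Myh11, Des and Rgs5 did not pass, at 0.002 ± 0.09, -0.03 ± 0.19 and -0.11 ± 0.19. Sums for granulosa (5 of 6 measured, Inhba fell), theca and luteal (5 of 5), endothelium (2 of 5) and leukocyte markers (3 of 6) overlapped between the 2 RNAs, and neither red cell marker was measured. The well-above-background flag was also set for 18.5% to 81.5% of negative control spots per channel, so it is a weak sign of expression. The part of a shift in cell composition in the traffic results was not tested.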

How the data were processed

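RNA of 3 cultures was measured on 6 two-colour Agilent arrays, 2 per culture with dyes exchanged. Per the file headers, Agilent's Feature Extraction software produced the deposited spot intensities, which are linear means with local background medians, and the log10 ratio of Cy5 over Cy3 after its own background and dye correction. The authors' deposited value table is in log10 units, and from its values each column equals the difference, divided by 2, between the log10 ratios of a culture's 2 arrays. The submitters' processing notes name limma, and further steps are not given in the sources used here. Constant background subtraction was set on 1 array and a local method on the others, per the file headers. That array, of culture 3 with mesenchymal RNA in Cy3, also had the most outlier-flagged probes, and its effect was not separated.

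Here the intensities were background-corrected in limma 3.58.1 (R 4.3.3) by normexp with an offset of 50 and loess-normalised within each array, with control spots at weight 0 and outlier-flagged spots left out. Ratios were turned to mesenchymal over epithelial by each array's dye orientation as deposited, averaged per culture and tested against 0 with lmFit and eBayes. Probes had to be well above background on at least 4 of 6 arrays in either RNA, which removed 43 of 20371, and measured in at least 2 cultures. Between-channel (Aquantile) scaling gave the brightness. The design is paired, since the labels name each culture a biological replicate and both its RNAs share arrays. Outlier-flagged probes numbered 61 to 467 per array, and 1639 on the culture 3 array with mesenchymal RNA in Cy3. The test was tried on simulated data.

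Genes named are, per prefix, up to 6 called genes with the largest change, or the 2 brightest with fewer than 2 calls, up to 6 genes with disagreeing probes, up to 3 called genes per group of the wider list, and Arf1, Sec61a, Rab5a, Rab7, Copa and Vamp2. Other members, and Ehd1, Ehd2, Sort1 and M6pr, were named after their values were seen. 1 gene that this rule names is not reported here. Members, lists and the wider list were chosen with earlier results of these data known. Of 91 names, 15 differ from the current symbol and 2 had no RefSeq match. Alternatives covered background, normalisation, filters, left-out cultures, variance model and pairing.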

Additional observations from a re-analysis of the deposited data

How the results depend on the processing

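Over the alternatives, the genes higher in mesenchymal RNA numbered 13 in the reported analysis and the genes lower 1 (10 and 1 for vesicle traffic genes alone). Median centring in place of loess gave 14 higher and 6 lower (13 and 6 for traffic genes), the Feature Extraction log ratios 12 and 3 (11 and 3), and the authors' deposited values 14 and 3 (13 and 3). Over all probes, 1130 were higher and 1142 lower in the reported analysis, and 1208 and 1322 with median centring. The Feature Extraction log ratios gave 1195 and 1287 probes, and the authors' deposited values 1200 and 1318. The lower members under these settings included Arf4 and Copa, and the median of all features stayed within 0.1 of 0. Leaving out 1 culture at a time gave 4 to 28 genes higher and 0 to 12 lower (4 to 23 and 0 to 12 for traffic genes), with the high end without culture 1. An adjusted p under 0.01 left 3 higher and 0 lower (Rab3b, Vps26a and Vps29). With no replicate block, that is, with the cultures' pairing ignored, 2 were higher and 0 lower (Rab3b and Vps26a). Calls over all probes fell as well, to 439 higher and 524 lower at 0.01, and to 112 and 144 without the block. The other settings gave 9 to 15 members higher and 1 lower. Rab3b and Vps26a kept their call in all 14 alternatives and Vps29 in 12 of 13 (neither it nor Vps35 could be tested with saturated spots left out), while Cops3 and Kif20a lost theirs in 7 of 14 and Sec22a in 5 of 14. No called gene turned its direction. Uncalled values near 0 did: Sec61a1 was -0.0024 with median centring, Vamp8 was 0.068 from the authors' deposited values and 0.080 where flagged spots stayed in. Leaving out 1 culture at a time gave -0.027 to 0.217 for Vamp3, -0.139 to 0.0202 for Rab5a and -0.174 to 0.027 for Vamp2. The causes were not tested. Saturated spots limit the ratio of 8 members, none of them saturated on all 6 arrays.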
